A study of Homo sapiens with 3 samples.

Results

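The genes described here are 9 that ERK signalling induces and most of which restrain it: the dual-specificity phosphatase genes DUSP5, DUSP2, DUSP4 and DUSP6, the SPRED genes SPRED2 and SPRED1, the Sprouty genes SPRY1 and SPRY2, and EGR1. They were chosen by name as known feedback genes, and all probes annotated to them were used, 12 probes for 9 of the 19367 genes that the array names. RNA came from L428tetPU.1 cells, a line derived from L428, which is an established line of classical Hodgkin lymphoma. The cells carry a PU.1 gene that stays off while tetracycline is in the medium, and were grown with 500 ng/ml tetracycline, 10% serum and RPMI1640 per the labels. The 3 groups were cells at day 0, at day 1 and at day 3 after the tetracycline was taken away, with 1 bead array each. The design text speaks of 4 independent experiments per RNA sample, yet the files hold 1 column of values a day. The sources used here do not say whether the line is 1 clone or which promoter drives the PU.1 gene. The series set out to find how gene expression changed once PU.1 was induced.

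ERK is the last kinase of a chain in which receptors load Ras with GTP, Ras activates Raf, Raf activates MEK and MEK activates ERK. Active ERK switches on early genes such as EGR1, and it also switches on genes whose products damp the chain. Dual-specificity phosphatases remove the activating phosphates from ERK itself, while Sprouty and SPRED proteins act higher up, between receptor and Raf. In Hodgkin lymphoma cells ERK is known to be active, and receptors such as CD30 and CD40 feed into it.

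On each array between 22.3% and 23.2% of 48701 probes were above background, which here means a detection p-value under 0.01. The 1 named probe of SPI1, the gene of PU.1, was not above background on any array, with intensities of 40.8 at day 0, 35.3 at day 1 and 38.9 at day 3. Induction of PU.1 was thus not measured at the RNA level here, and the sources used here do not say if that probe can read the introduced gene. All 10 markers set for Reed-Sternberg cells, the tumour cells of this lymphoma, were above background on every array, against 0 of 5 T cell markers and 0 of 5 B cell markers. Of 6 myeloid markers 1 was above background at day 0 and 2 at day 1 and day 3. Summed over the 6, the intensities came to 359 at day 0, 4439 at day 1 and 848 at day 3, of which CD68 gave 159.9, 4022 and 529.0, while CD14, CSF1R, LYZ and MPO were not above background on any array. With 1 array a day there is no spread between cultures and no test.

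In place of a test a size rule was used. A gene "rose" or "fell" if its normalized log2 signal differed by at least 1, which is 2-fold, and, for a gene above background on just 1 array of the pair, if the bound given by the lowest signal above background on the dim array also reached 2-fold. As a measure of error, the changes of 2 probes for the same gene were compared over the 416 genes that had 2 probes detected on every array. This probe error was 0.36 log2 for day 1 against day 0, 0.29 for day 3 against day 0 and 0.31 for day 3 against day 1 (SD). It leaves out differences between cultures.

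The promoters of 3 of the genes are shown because EGR1 and SPRED2 rose after tetracycline removal and SPRY1 fell. No window was at hand for DUSP5, which also rose. Each window runs from 250 bases before to 50 bases after a start site that RefSeq annotates on GRCh38.p14, read 5′ to 3′ on the gene's strand. In the EGR1 window, at chr5:138465229-138465528 on the plus strand, the capitals mark 2 matches to the core of the serum response element, where SRF and its ERK-regulated partner ELK1 are known to bind. In a SPRED2 window, at chr2:65432550-65432849 on the minus strand, and in a SPRY1 window, at chr4:123396545-123396844 on the plus strand, they mark the purine box GAGGAA on either strand, a form of the core GGAA that PU.1 and other ETS factors recognise. Both genes have 1 more annotated window, without this box, and the windows that hold it were chosen for display.
EGR1: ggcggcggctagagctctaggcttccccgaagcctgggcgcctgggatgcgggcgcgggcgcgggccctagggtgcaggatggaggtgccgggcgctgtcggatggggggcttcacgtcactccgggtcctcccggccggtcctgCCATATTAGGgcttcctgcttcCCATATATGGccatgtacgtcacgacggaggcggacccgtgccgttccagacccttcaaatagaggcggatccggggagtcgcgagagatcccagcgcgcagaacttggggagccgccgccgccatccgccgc
SPRED2: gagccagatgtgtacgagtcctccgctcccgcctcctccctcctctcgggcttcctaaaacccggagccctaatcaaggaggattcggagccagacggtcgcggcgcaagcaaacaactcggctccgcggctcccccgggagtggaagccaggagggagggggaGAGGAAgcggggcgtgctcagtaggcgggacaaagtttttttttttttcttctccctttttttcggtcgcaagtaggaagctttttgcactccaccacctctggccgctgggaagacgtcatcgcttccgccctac
SPRY1: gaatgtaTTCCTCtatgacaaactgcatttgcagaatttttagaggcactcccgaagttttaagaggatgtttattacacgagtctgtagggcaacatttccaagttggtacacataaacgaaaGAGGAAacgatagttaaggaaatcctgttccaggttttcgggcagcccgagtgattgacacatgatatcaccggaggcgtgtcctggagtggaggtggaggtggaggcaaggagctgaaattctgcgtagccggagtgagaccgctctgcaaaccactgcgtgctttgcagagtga

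RefSeq windows of 300 bases were at hand for 7 of the genes, and not for DUSP5 or DUSP4. They came to 11 windows in all, since SPRED2, SPRY1 and SPRY2 have several annotated starts. A serum response element core stood in 1 of the 11 windows, that of EGR1, and in 1.29% of all 35116 promoter windows of this length. The purine box GAGGAA was in 6 of the 11, against 27.9% of all windows. It was found for DUSP6, SPRED2, SPRED1, SPRY1 and SPRY2, so among genes that rose, fell or did neither. The shorter core GGAA, which lies within GAGGAA, was in all 11 and in 95.5% of all windows. TGACG, the core of the cyclic AMP response element, was in 3 of the 11, those of SPRED2, SPRY2 and EGR1, and in 24.6% of all. The AP-1 site TGANTCA was in 1, the second SPRED2 window, and in 7.71% of all. The site GCGTGGGCG, which EGR1 itself is known to bind, was in 0 of the 11 and in 0.795% of all. These are matches of letters in a window, and no binding was measured.

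DUSP5, SPRED2 and EGR1 rose at both day 1 and day 3, and SPRY1 fell at day 1, while DUSP2, DUSP4, DUSP6, SPRED1 and SPRY2 stayed within 2-fold of day 0. The 3 rises of 9 at day 1 stand beside a background of 9.19% of 9311 measured genes that rose, and the 1 fall beside 7.97% that fell. That fall, of SPRY1, missed the rule under 3 of 8 alternatives of the processing. Among the other alternatives only scaling to the 75th percentile changed its value, to -1.17 log2, and the fall passed there. The rest left the value unmoved or loosened the rule, so they could not end the call. At day 3 again 3 rose, beside 4.95% of 9190 genes, and 0 fell, beside 2.13%. From day 1 to day 3 none of the 9 passed the rule in either direction, beside 3.54% of 9318 genes higher and 3.92% lower. In the authors' deposited values 642 of all genes were higher and 854 lower at day 1, in place of 856 and 742, and 315 and 259 at day 3, in place of 455 and 196, and with scaling to the 75th percentile 727 and 1004 at day 1 and 374 and 363 at day 3, so the balance of all calls depends on the scaling. The median change of the 9 genes was 0.06 log2 at day 1 and 0.52 at day 3, beside -0.05 and -0.06 over all measured genes. In the authors' values the median of the 9 was -0.07 at day 1 and 0.32 at day 3, and with scaling to the 75th percentile it was -0.08 and 0.32, so its sign at day 1 turns with the scaling. In bulk RNA, fewer cells with a transcript and less of it per cell cannot be told apart.

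**Figure D1:**
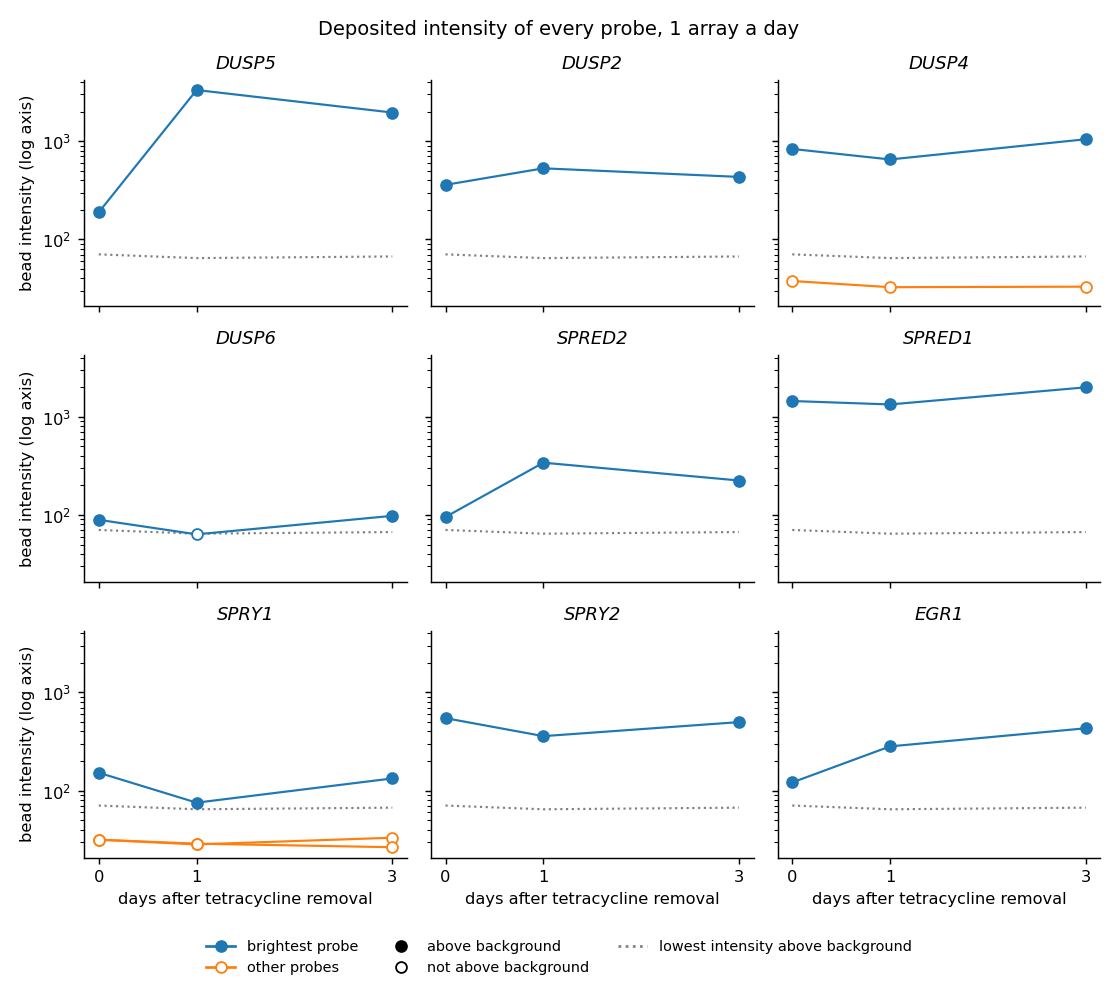
Deposited bead intensity (log axis) of every probe of the 9 genes against days after tetracycline removal, with 1 array a day and no error bars. Filled points were above background and open points were not, the dotted line joins the lowest intensity above background on each array, and orange marks the dimmer probes of DUSP4 and SPRY1. DUSP5 climbs to 3319 at day 1, SPRED2 follows at a lower level, EGR1 is highest at day 3 and SPRY1 dips at day 1.

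DUSP5 encodes a nuclear phosphatase that acts on ERK and holds it in the nucleus. Its probe gave an intensity of 188.8 at day 0, 3319 at day 1 and 1958 at day 3, above background on all arrays. Day 0 was by far the lowest, and day 1 the highest. After normalization DUSP5 rose 21.2-fold at day 1 (4.41 ± 0.36 log2, probe error) and 12.3-fold at day 3 (3.62 ± 0.29). Its change was 17th from the top of 9311 measured genes at day 1 and 18th of 9190 at day 3. Day 3 was 1.73-fold below day 1, a difference of -0.79 log2 that exceeds the probe error of 0.31 but not the size rule. RefSeq lists pseudogenes DUSP5P1 and DUSP5P2, and it is not known here if the DUSP5 probe reads them too. The array has 0 probes named for either.

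The other 3 phosphatase genes moved little. DUSP2 encodes a nuclear phosphatase first known from activated lymphocytes. The probe read 359.2 at day 0, 529.4 at day 1 and 432.8 at day 3. The order of the days was that of DUSP5, with day 1 highest and day 0 lowest, but the changes were 0.77 log2 at day 1 and 0.43 at day 3, short of the rule. The change at day 1 was larger than the probe error. That at day 3 was larger as well, but not in the authors' values, at 0.26, or with scaling to the 75th percentile, at 0.27.

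DUSP4 encodes a further inducible nuclear phosphatase. Its brighter probe gave 833.9 at day 0, 651.6 at day 1 and 1047 at day 3. Its second probe, annotated to another transcript record of the gene, was not above background on any array, with 37.7, 32.6 and 33.0. On the brighter probe day 1 was lowest and day 3 highest, with changes of -0.14 at day 1, within the probe error, and 0.52 at day 3, where it was 0.32 in the authors' values and with scaling to the 75th percentile. DUSP6 encodes the cytoplasmic phosphatase that is selective for ERK. It was close to background, with 89.3 at day 0, 63.5 at day 1 and 98.0 at day 3, and at day 1 its detection p-value of 0.0109 fell just outside the limit. The change at day 1 was -0.59 log2, and by bound DUSP6 was at least 1.48-fold lower, which does not reach the rule. At day 3 it was 0.15, within the probe error.

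The SPRED genes encode proteins that bring the Ras-inactivating protein neurofibromin to the membrane. SPRED2 had an intensity of 95.4 at day 0, 340.8 at day 1 and 224.4 at day 3, above background throughout. It was lowest at day 0 and highest at day 1, as was DUSP5. SPRED2 rose 4.40-fold at day 1 (2.14 ± 0.36 log2) and 2.71-fold at day 3 (1.44 ± 0.29), and lay 1.63-fold lower at day 3 than at day 1. SPRED1 gave 1448 at day 0, 1336 at day 1 and 1995 at day 3. Its change at day 1 was 0.06 log2, within the probe error, and turned to -0.07 in the authors' values and -0.08 with scaling to the 75th percentile, so that it has no settled direction there. At day 3 it was 0.64, short of the rule. The difference between SPRED2 and SPRED1 was not tested, with 1 array a day.

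The Sprouty genes encode inhibitors of signalling from receptor tyrosine kinases to Ras and Raf. SPRY1 had 1 probe above background, with 152.0 at day 0, 75.3 at day 1 and 132.9 at day 3, and 2 more that were not above background on any array, between 26.5 and 33.1. Of these 2, 1 is annotated to the same transcript record as the detected probe, and it read 31.6, 28.8 and 26.5. Why probes of the same record differ was not tested. On the detected probe day 1 stood below the other days, near the limit of 64.5 on that array. SPRY1 fell 2.18-fold at day 1 (-1.13 ± 0.36 log2), but it no longer passed the rule in the authors' values, at -0.97, without background correction, at -0.94, or with an offset of 50, at -0.81. At day 3 its change of -0.17 was within the probe error, and day 3 lay 1.95-fold above day 1, just short of the rule. SPRY2 gave 546.7 at day 0, 358.4 at day 1 and 497.9 at day 3. Day 1 was lowest for it as well, at -0.44 log2, and day 3 differed from day 0 by 0.01, a value that turned to -0.14 in the authors' values and -0.15 with scaling to the 75th percentile.

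EGR1 encodes a zinc finger transcription factor that ERK induces through ELK1 and SRF, and it serves as a common readout of the pathway. The EGR1 probe read 121.0 at day 0, 281.9 at day 1 and 430.9 at day 3. Unlike DUSP5 and SPRED2 it was highest at day 3. EGR1 rose 2.73-fold at day 1 (1.45 ± 0.36 log2) and 4.21-fold at day 3 (2.07 ± 0.29), with a further 0.63 log2 from day 1 to day 3 that did not reach the rule. Its change was 537th from the top at day 1 and 119th at day 3.

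**Figure D2:**
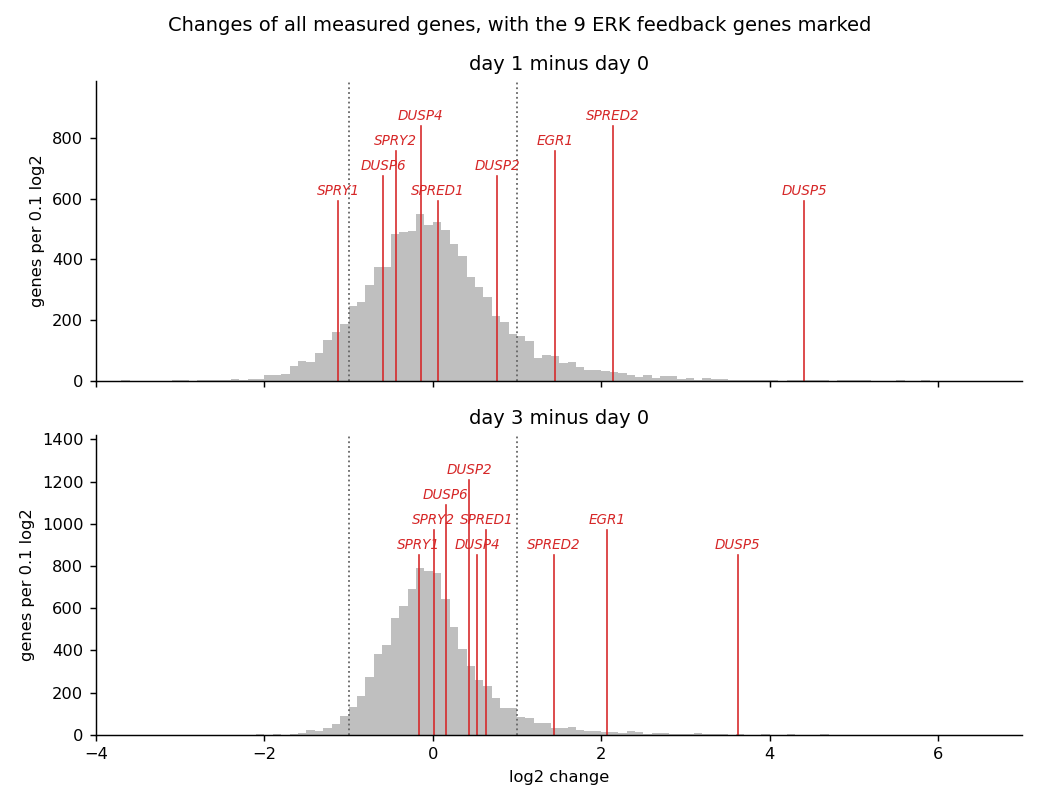
Number of measured genes (y axis) by log2 change (x axis, bins of 0.1), for day 1 minus day 0 and day 3 minus day 0. Red lines place the 9 genes and dotted lines mark the 2-fold rule. DUSP5 lies far in the upper tail on both days at 4.41 and 3.62, SPRED2 and EGR1 beyond the upper dotted line, and SPRY1 at -1.13 beyond the lower one at day 1.

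Set by the order of their days, DUSP5, DUSP2 and SPRED2 had day 1 highest and day 0 lowest, as did 20.7% of the 8090 genes above background on all arrays. SPRED1 and EGR1 were highest at day 3 and lowest at day 0, as were 10.3%. DUSP4, DUSP6 and SPRY2 were highest at day 3 and lowest at day 1, as were 12.3%. SPRY1 was highest at day 0 and lowest at day 1, as were 27.9%. Some neighbours in these orders did not differ beyond the probe error, namely day 0 and day 1 for DUSP4 and SPRED1, and day 0 and day 3 for DUSP6, SPRY1 and SPRY2. The summed intensity of the myeloid markers was also highest at day 1, as were DUSP5 and SPRED2, and its part in these results was not tested.

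Few genes had changes near those of DUSP5, which were among the largest. Over 8082 other genes above background on all 3 arrays, likeness was taken as the distance between pairs of log2 changes, at day 1 and at day 3. LAMP3, a lysosomal protein of mature dendritic cells, lay nearest to DUSP5 at 0.36, followed by PLEK at 0.85 and XKR4 at 0.92, and 1 gene was within 0.5. For SPRED2 the nearest were MREG, PELI1 and CD80, at 0.07, 0.08 and 0.11, with 73 genes within 0.5. For EGR1 they were LY96, IFITM1 and GADD45A, at 0.06, 0.08 and 0.09, with 28 within 0.5, where the IFITM1 probe may read its near-identical relatives. SPRY1, whose changes were smaller, had 810 genes within 0.5, the nearest being TIMM9, KCNG1 and HSD17B8. These counts follow the size of the changes, since few genes changed as far as DUSP5 and many changed little.

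**Figure D3:**
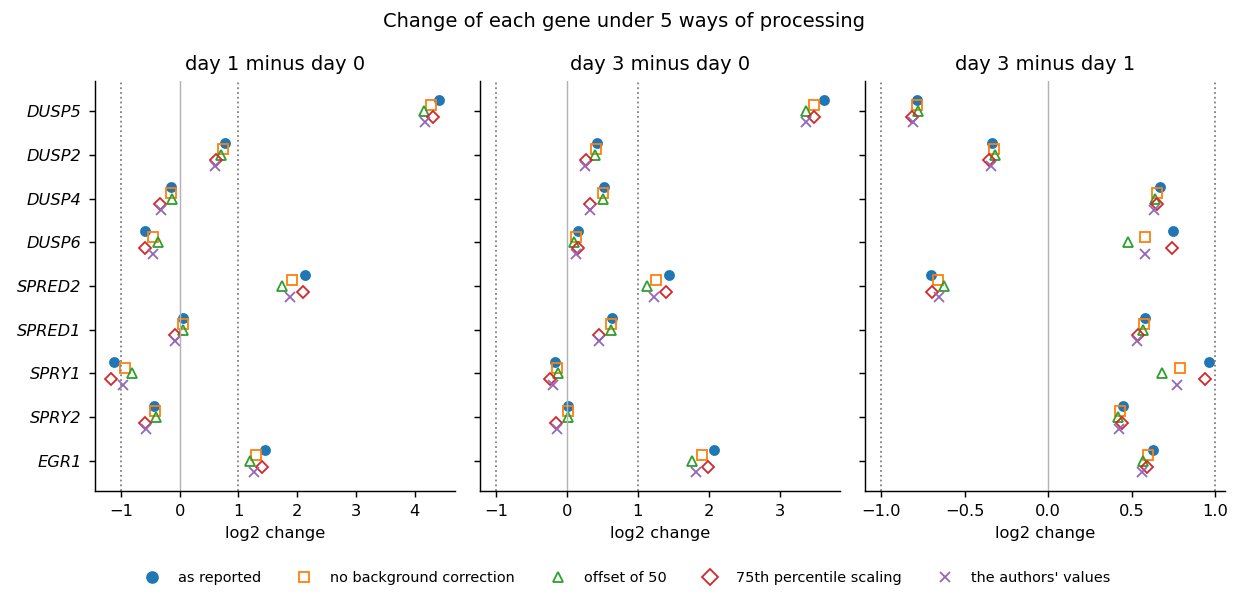
Log2 change (x axis) of each of the 9 genes in the 3 comparisons, under 5 ways of processing the same arrays, with dotted lines at the 2-fold rule. DUSP5, SPRED2 and EGR1 stay beyond the line at day 1 and day 3 in all 5, SPRY1 crosses it at day 1, and no gene passes it between day 1 and day 3.

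The rest of the pathway was read from 6 lists, whose counts stand beside the same shares of all measured genes as above, 9.19% higher and 7.97% lower at day 1, and 4.95% higher and 2.13% lower at day 3. Of 9 further phosphatase, Sprouty and SPRED genes 3 were measured. DUSP10, a phosphatase of the p38 and JNK kinases, had 72.5 at day 0, 130.1 at day 1 and 132.9 at day 3, and rose by 1.09 log2 at day 1 and 1.07 at day 3. These calls ended in the authors' values, without background correction and with an offset of 50. DUSP1, the first of the inducible phosphatases, had 211.1, 167.8 and 358.6, and rose by 1.18 from day 1 to day 3. DUSP16, which acts on JNK and was named after its values were seen, was at least 1.34-fold higher at day 1, short of the rule.

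The list for the loading of Ras with GTP held exchange factor genes together with others, among them an adaptor and a docking protein gene. Of its 12 genes 7 were measured. Of these 4 rose at day 1 and 2 at day 3, and 0 fell, beside 9.19% and 4.95% of all genes that rose. The median was 1.13 at day 1 and 0.21 at day 3. RASGRP1, an exchange factor of lymphocytes driven by diacylglycerol, had 104.5 at day 0, 423.0 at day 1 and 325.6 at day 3, so that it rose 5.01-fold and 3.70-fold. Its relative RASGRP3 rose 2.89-fold at day 1. The adaptor gene SHC1 rose 3.65-fold at day 1 and was back at 291.9 by day 3, against 276.7 at day 0. The docking protein gene GAB2 rose 2.19-fold at day 1 and 2.02-fold at day 3, and both calls ended in the authors' values and with scaling to the 75th percentile. The day 3 call of GAB2 ended without background correction and with an offset of 50 as well. Of the GTPase-activating proteins that switch Ras off, NF1 was at least 2.16-fold higher at day 1, when it was the 1 gene measured of 7 with a probe, and 0 of 2 passed at day 3. The NF1 call ended in the authors' values, without background correction and with an offset of 50. NF1 encodes neurofibromin, the partner of the SPRED proteins.

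The Ras-Raf-MEK-ERK cascade itself had 11 measured genes. At day 1 IQGAP1, a scaffold protein gene, rose 2.93-fold and PEA15, whose product keeps ERK in the cytoplasm, 2.66-fold. HRAS fell 2.44-fold and PEBP1, a gene of a Raf inhibitor, fell 2.74-fold. PEA15 was named after its values were seen. The median was 0.18 at day 1 and 0.09 at day 3, and 0 genes passed at day 3. With scaling to the 75th percentile HRAS, at -1.14, and PEBP1, at -1.06, also passed as lower at day 3, and in the authors' values HRAS did, at -1.05. The MEK1 gene MAP2K1, also named after its values were seen, had 1712 at day 0, 2802 at day 1 and 2862 at day 3, changes of 0.87 and 0.93 short of the rule. From day 1 to day 3 RRAS rose by 1.06 and PEA15 fell by 1.18. RRAS did not pass in the authors' values, without background correction or with an offset of 50.

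Other early genes that ERK can induce had 13 measured members at day 1 and 12 at day 3. ETV5, an ETS factor gene known as an ERK target, had 73.5 at day 0, 337.8 at day 1 and 176.6 at day 3. It rose 6.04-fold at day 1 and 2.87-fold at day 3. Its day 0 value lay near the limit of 70.4 on that array. The day 1 change of 2.60 log2 was 2.05 with an offset of 50. The other ETV5 probes, at 1.45 and 1.69 log2 at day 1, were above background at day 1 only. ZFP36, which marks cytokine mRNAs for decay, rose 3.78-fold at day 1 and 2.22-fold at day 3. The day 3 call of ZFP36 ended in the authors' values and with an offset of 50. The cyclin D1 gene CCND1 fell 2.70-fold at day 1 and was named after its values were seen. At day 3 IER3 rose 2.26-fold and ATF3 2.18-fold, both of which ended in the authors' values and with scaling to the 75th percentile. FOS and FOSB, named after their values were seen, came above background at day 1, with bounds of at least 1.42-fold and 1.31-fold, short of the rule. With a looser limit on the detection p-value, 0.05, both passed it. The list's median was 0.56 at day 1 and 0.73 at day 3.

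Of 10 measured effectors of ERK and co-repressors of EGR1, 2 rose at day 1 and 0 at day 3, beside 9.19% and 4.95% of all genes. MKNK1, a kinase that ERK activates, had 313.3 at day 0, 989.8 at day 1 and 439.3 at day 3, and rose 3.71-fold at day 1. ELK1, the ERK-regulated factor at the serum response element, rose 2.14-fold at day 1. ELK1 missed the rule in the authors' values, with an offset of 50 and with scaling to the 75th percentile. SRF, named after its values were seen, changed by 0.53 log2 at day 1 and 0.01 at day 3. From day 1 to day 3 SHC1 fell by 1.66 log2, MKNK1 fell by 1.24 and ETV5 fell by 1.07, and ETV5 did not pass in the authors' values, without background correction or with an offset of 50. The other ETV5 probes, above background at day 1 only, changed by -0.64 and -0.71 there, short of the rule.

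**Figure D4:**
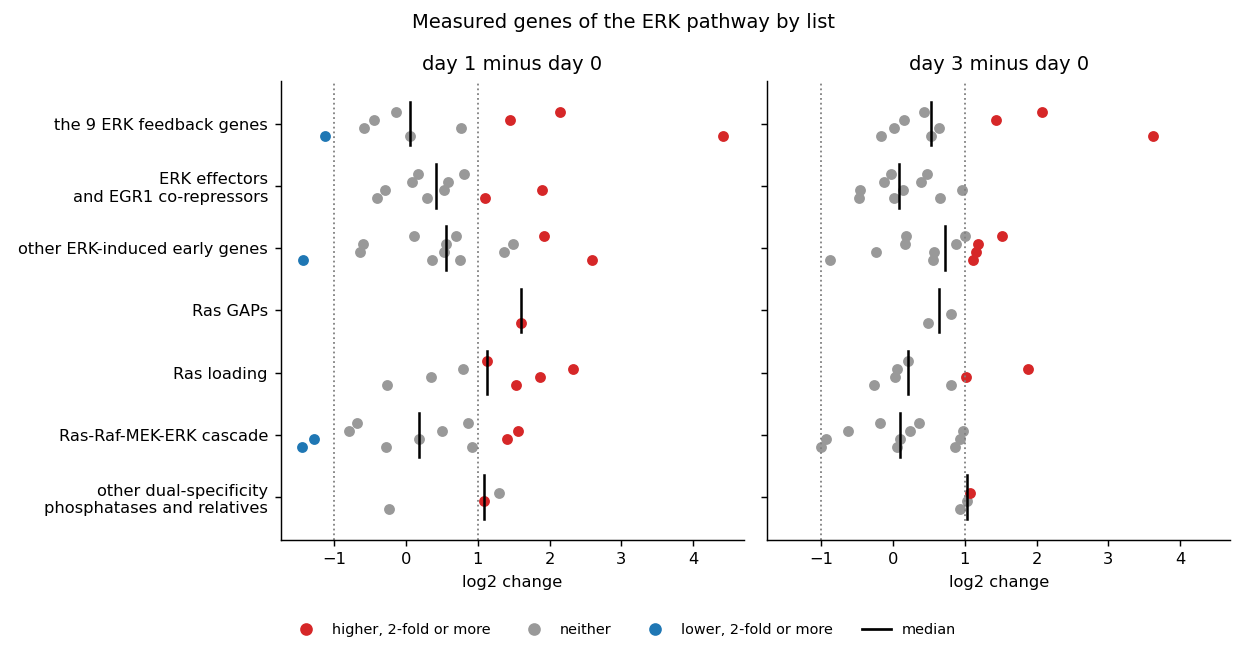
Log2 change (x axis) of the measured genes of each list at day 1 and day 3, 1 point a gene, with the median as a black bar and dotted lines at the 2-fold rule. Red points rose, blue points fell and grey points did neither; a grey point beyond a dotted line rests on a bound under 2-fold. The Ras loading genes lie to the right at day 1, with a median of 1.13, and closer to 0 at day 3, at 0.21.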

How the data were processed

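Gene expression was measured once per day on bead arrays, with BeadStudio 3.3.7 named in the submitters' processing notes. The authors deposited 1 intensity and 1 detection p-value per probe and array, not normalized per the file headers. The authors' deposited log2 values were, to within 1e-05, log2 intensities from which the array's 75th percentile and then the probe's own median had been subtracted, so scale, centring and direction are known; each column's median was 0.

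Intensities were corrected with limma 3.58.1 in R 4.3.3 (normexp, with the background taken from the detection p-values, plus an offset of 16), then quantile normalized across the 3 arrays and put on a log2 scale. Quantile normalization removes a shift shared by most genes, and the offset draws dim probes toward 0. Genes were named through the platform annotation and RefSeq (24303 probes with 1 symbol, 0 with several, 24398 unnamed here), and the brightest probe stood for a gene. The rest used Python 3.11.15, pandas 2.3.3 and numpy 2.4.6. The calling step was tested on simulated data, in which only probes brighter at day 0 than those of DUSP5, SPRED2, EGR1 and SPRY1 were changed. It therefore does not cover probes as dim as these.

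The comparisons were day 1 and day 3 against day 0 and day 3 against day 1, which share arrays. The rule for named genes took the 9 genes, SPI1, up to 4 called genes per list and the 3 nearest genes of each gene that passed at day 1 or day 3; other genes were named after their values were seen, as the text says at each. The members, the lists and the rules were chosen with earlier results of these data known. A comparison of protein sequences was planned and is not reported here.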

Additional observations from a re-analysis of the deposited data

Results flagged for a closer look

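For 3 of the 9 genes the change at day 1 and the change at day 3, both against the same day 0 array, had opposite signs. They were -0.14 and 0.52 log2 for DUSP4, -0.59 and 0.15 for DUSP6, and -0.44 and 0.0096 for SPRY2. In each pair 1 change was within the probe error, so its sign is not settled: DUSP4 at day 1, and DUSP6 and SPRY2 at day 3. The set turns with the scaling: SPRY2 at day 3 was -0.14 in the authors' values and -0.15 with scaling to the 75th percentile, so that its signs were alike, while SPRED1 then had opposite signs, -0.07 and 0.46 in the authors' values. None of the 6 changes named first reached 2-fold, and the differences between days were not tested, since each day has 1 array. Opposite signs place day 0 between the other days, which was common over all genes. Of the 8090 genes above background on all arrays, 12.3% were highest at day 3 and lowest at day 1. A further 13.9% were highest at day 1 and lowest at day 3.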

How the results depend on the processing

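Each count of the 9 genes was recomputed under 8 alternatives, and each change under 7, all but the 1.5-fold rule. A detection limit of 0.05, no detection limit and the mean of probes could not move a change. The detection settings alter calls only, and each of the 9 genes had 1 probe above background to average. Those unmoved values are counted among the 189 below. Of 189 recomputed changes of single genes 186 moved by less than the probe error and 0 changed sign after passing the rule; the other 3 were those of SPRED2 at day 1 and day 3 (1.75 and 1.13) and EGR1 at day 3 (1.77), all with an offset of 50. The count of falls at day 1 was 0 in place of 1 without background correction, with an offset of 50 and in the authors' values, as SPRY1 did not pass there. With a 1.5-fold rule, 4 genes were higher and 2 lower at day 3 than at day 1, in place of 0 and 0: DUSP4, DUSP6, SPRY1 and EGR1 higher, and DUSP5 and SPRED2 lower. These stand beside 12.5% of 9318 measured genes that were higher and 12.9% that were lower under the same 1.5-fold rule. The other 43 counts stayed within 1.5 times the reported ones. Scaling to the 75th percentile moved the median change of detected genes by -0.12 log2 at day 3, and the authors' values moved it by -0.10. No paired analysis was possible because each day has 1 array. No array could be left out, for the same reason. Signal over background limits DUSP6, SPRY1 and SPRED2, whose dimmest values lay near the detection limit; where the dimmer of 2 probes was under 8 log2 the probe error at day 1 was 0.39, against 0.23 for brighter pairs.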
